A study of Mus musculus with 6 samples.

Results

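The genes that lie within 5 Mb of Col17a1 on mouse chromosome 19 were examined in obstructed ureters. They were chosen by position, with earlier results of these data known, as the array probes placed at chr19:42720894-52720894 of the mm9 genome build, the build named in the file headers. Col17a1 itself, Scd1, Scd2 and Wnt8b were left out by the rule. This gave 142 genes on 217 probes, of 36610 genes on 56605 probes on the array. The samples were 3 ureters labelled Col17a1-WT and 3 labelled Col17a1-KO, all from mice of 2 months on a C57BL/6N background, taken 4 days after unilateral ureteral obstruction, in which the ureter of 1 side is closed off. KO replicate 3 came from a female and the other 5 ureters from males. The labels name no cell type, promoter or exon for the altered allele. They also do not say whether the groups were littermates. The p-values set the difference between groups against the spread within groups, and cover only these 6 samples, each run on 1 single-colour array.

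Col17a1 encodes collagen XVII, which anchors basal epithelial cells to the basement membrane. Genes beside a targeted gene are inherited with it, and a line made in embryonic stem cells of 1 strain and bred into another can keep a stretch of donor chromosome around the target. The labels do not give the strain in which the allele was made. The chromosome stretch studied here holds genes with unrelated jobs, among them a flagellar protein, ubiquitin ligases, mitochondrial carriers and transcription factors. Position is what they share, so their functions were used only to order the results.

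Values are the log2 processed signal minus the 75th percentile of the same array, so 0 is that percentile. Differences are KO-labelled minus WT, given with the standard error of the limma fit over all 35068 probes tested. A probe was tested if it was well above background on all 3 arrays of at least 1 group. Both Col17a1 probes had higher values in the KO-labelled ureters (differences of 1.65 ± 0.48 and 1.10 ± 0.19), so directions rest on the labels alone. The 75th percentile signal ran from 143.7 to 164.9 over the 6 arrays, and any pair of arrays correlated across probes at 0.977 to 0.993.

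Of the 142 genes, 95 had a tested probe, and 47 did not. The 95 genes were read by 142 probes, of which 134 were well above background on all 6 arrays. Of the other 8 tested probes, 4 entered through the WT group and 4 through the KO-labelled group, and these had to differ in part because of how they entered. No probe of 36 genes was well above background on any array. Among these were Nkx2-3 and Tlx1, which are homeobox genes, Hpse2, which encodes heparanase 2, Ins1, an insulin gene, Calhm1, a channel gene, and Cfap58, a flagellar gene. The probe of Abcc2, an organic anion exporter, was well above background on 1 array.

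The sequences below are the 30 bases at the 3′ end of 60-base probes for the members on which the results turn, read 5′ to 3′ from the array files. They show that probes of 1 gene read separate stretches of its transcript. Capitals mark AATAAA, the hexamer that precedes many polyadenylation sites.
Neurl1a, chr19:47333865-47333924, plus strand: tgtgtttgtgAATAAAggtgatttcgtacc
Cfap43, chr19:47812096-47812155, minus strand: aagtaggtcacctcttagctgcacgttttt
Cfap43, chr19:47888405-47888464, minus strand: tactcgcttctggaattgtaatgtattcta
Sfxn2, chr19:46664980-46665039, plus strand: tctcggatcaccatggcagcccctggcatg
Sfxn2, chr19:46671319-46671378, plus strand: cgcaccattatgaattgAATAAActatttg
Mfsd13a, chr19:46449679-46449738, plus strand: ggttcatctcatctcaagtaaagccagtca
2310034G01Rik, chr19:46423161-46423220, minus strand: ggtgttcggtccagagggtcttgaagcgaa
Btrc, chr19:45590587-45591553, plus strand: gtgaattcgtaaggaccctaaatgggcaca
Btrc, chr19:45607701-45607760, plus strand: atatgttcacaagttaggatgatggtaata
Pdcd11, chr19:47205184-47205243, plus strand: cagcacggcacggataaggacgtgcaggcg
Pdcd11, chr19:47205741-47205800, plus strand: ctggggcttagtgttgttgttagacagcag

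The hexamer stood in this 30-base end for the Neurl1a probe and for the Sfxn2 probe at the higher coordinate. Of all 56605 probes, 8.13% held AATAAA there and 2.09% held its reverse complement, TTTATT. Of the 142 tested probes near Col17a1, 11.3% held AATAAA and 3.52% held TTTATT. The shares over all tested probes were not counted, so these cannot be read as a trait of this stretch. The Btrc probe at the lower coordinate spans 967 bases of genome with its 60 bases, so it reads across a splice junction.

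No member passed the adjusted threshold of 0.05. Over all probes tested 0 passed as well, which is 0% of them, and the lowest adjusted p was 0.287 (limma, Benjamini-Hochberg). At an unadjusted p under 0.05 there were 3246 probes in all, 9.26% of those tested. At an unadjusted p under 0.01 there were 11 of 142 member probes (7.75%), against 2.2% of all probes tested. These 11 probes read 10 of the 95 tested genes (10.5%), against 3.13% of all genes tested. Of the 11 probes 6 had higher values in the KO-labelled ureters and 5 lower values, where the background was 1.09% higher and 1.11% lower. At an unadjusted p under 0.05 there were 25 member probes (17.6%), 14 higher and 11 lower, against a background of 4.14% higher and 5.11% lower. They read 22 genes (23.2%), against 12.5% of all genes.

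Groups did not overlap for 40 of 142 member probes (28.2%), against 15.6% of all probes tested. Of the 40, 21 were higher and 19 lower, against a background of 7.02% higher and 8.55% lower. By gene, 32 of 95 (33.7%) had such a probe, against 20.8% of all genes. On chromosome 19 farther than 10 Mb from Col17a1, the shares were 1.64% at an unadjusted p under 0.01 and 14.6% without overlap, over 792 probes. Among member probes well above background on all 6 arrays, 10 of 134 had an unadjusted p under 0.01 (7.46%), against 1.94% of all such probes. Over all member probes 68 had higher and 74 lower values. Their median log2 difference was -0.01, as it was over all probes. The median size of the difference, without its sign, was 0.219 near Col17a1 and 0.151 over all probes.

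**Figure D1:**
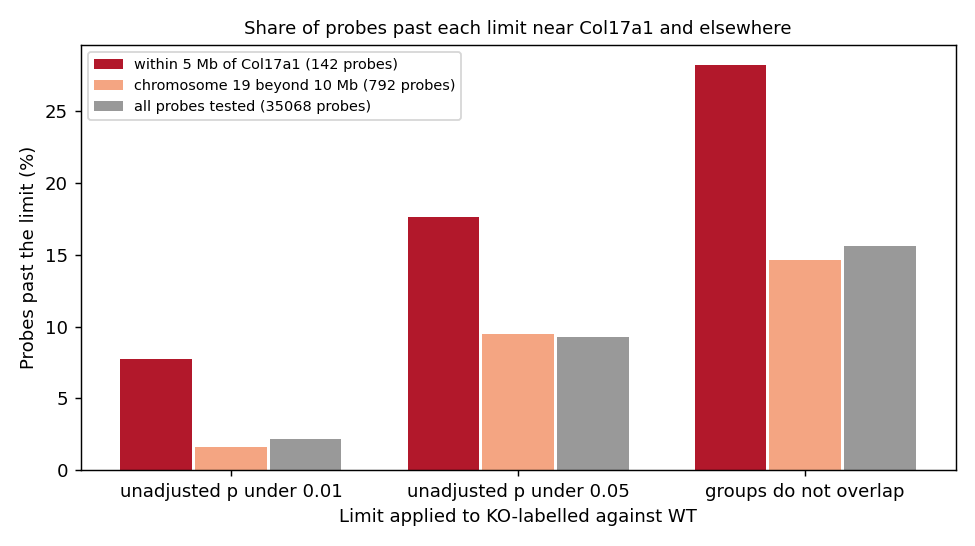
Bars give the percentage of probes past each limit in KO-labelled against WT ureters, for probes within 5 Mb of Col17a1, probes on chromosome 19 farther than 10 Mb away, and all probes tested. The bars near Col17a1 reach 7.75%, 17.6% and 28.2%, against 2.2%, 9.26% and 15.6% for all probes.

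The shares and their background varied with the arrays included. Without WT replicate 2 the share at an unadjusted p under 0.01 was 4.93% near Col17a1 and 1.11% over all probes, and without WT replicate 3 it was 4.93% and 1.62%. Without KO replicate 2 it was 4.23% and 0.921%. When the female, KO replicate 3, was left out, it stayed at 7.75% near Col17a1 while that over all probes was 4.89%. The share without overlap was 43.7% and 32.2% without WT replicate 1, and 43% and 34.5% without KO replicate 3.

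The 10 genes lay on both sides of Col17a1 and all fell between 3 Mb below it and 1 Mb above it. That stretch holds 100 of the 142 tested probes. From 3 to 5 Mb below Col17a1 there were 0 such genes among 21, where the share over all genes was 3.13%, so these counts are too small to tell a lower share from the background. Above 1 Mb on the other side, the annotated stretch holds few genes, and 0 of 5 had an unadjusted p under 0.01. The outermost tested members were Pyroxd2, an oxidoreductase gene, at -0.39 ± 0.23, and an unnamed transcript at 0.02 ± 0.10. Just outside the limits, Loxl4, a lysyl oxidase-like enzyme, differed by 0.01 ± 0.31 and Xpnpep1, an aminopeptidase, by 0.07 ± 0.13.

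**Figure D2:**
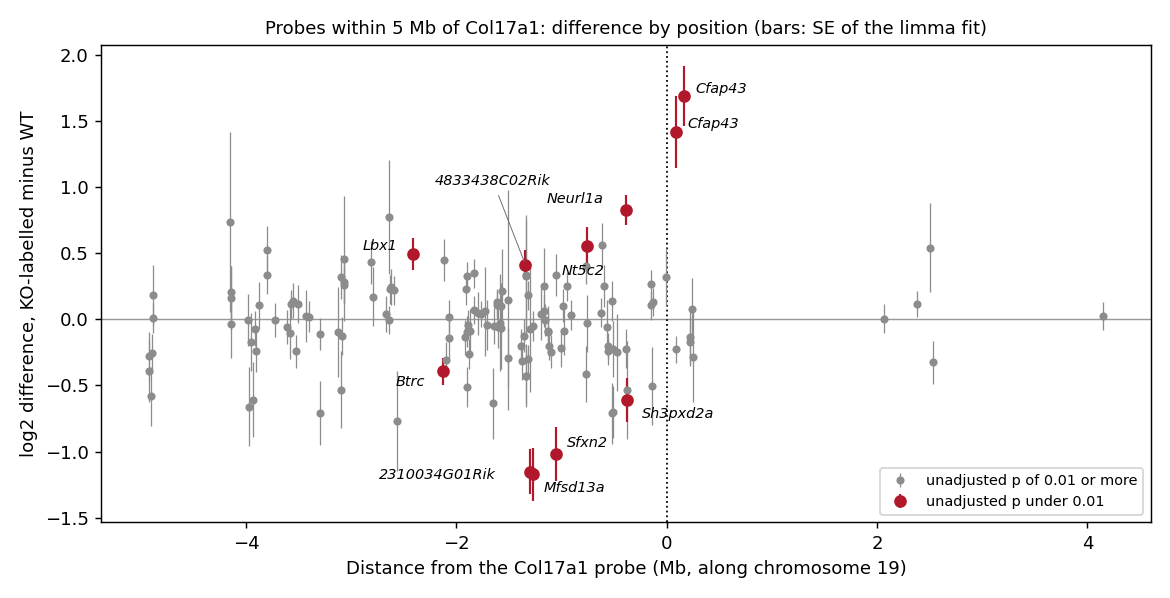
Each point is 1 tested probe, placed by its distance from the Col17a1 probe in Mb (horizontal) and its log2 difference, KO-labelled minus WT (vertical), with the standard error as a bar. The 11 probes with an unadjusted p under 0.01 are red and named. They run from Lbx1 and Btrc below Col17a1 to Cfap43 above it, where the differences reach 1.69. The probe at 1.69 was tested only through the KO-labelled group.

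Neurl1a, 387 kb below Col17a1, encodes an E3 ubiquitin ligase whose fly counterpart, neuralized, acts on Notch ligands. Its values were 0.41, 0.25 and 0.45 in the WT ureters and 1.21, 1.12 and 1.27 in the KO-labelled ureters. The 3 arrays of each group lay within 0.2 of each other, and the gap between the groups was wider than either spread. The difference was 0.83 ± 0.11 (limma, adjusted p = 0.359), and the probe ranked 19 of 35068 by p.

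Cfap43, whose nearer tested probe lies 91 kb above Col17a1, encodes a protein of the axoneme needed for normal sperm flagella in mice. At the nearer probe the values were -2.49, -3.40 and -3.25 in WT and -1.34, -1.89 and -1.65 in KO-labelled ureters. All KO-labelled arrays were above all WT arrays, and the difference was 1.42 ± 0.27 (limma, adjusted p = 0.418). The other tested probe, 168 kb away, had values of -5.48, -5.20 and -4.73 in WT and -3.38, -3.24 and -3.73 in KO-labelled ureters. It was well above background on 1 WT array and on all 3 KO-labelled arrays, so it was tested only through the KO-labelled group. Part of its difference of 1.69 ± 0.23 (limma, adjusted p = 0.359) therefore follows from how it entered. The other 2 Cfap43 probes were not well above background on any array.

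Genes of the motile cilium elsewhere in the genome were set beside Cfap43. Of 30 listed genes 15 were tested, with 7 higher and 8 lower, a median of -0.05, and 0 past the adjusted threshold. The median over all probes tested was -0.01. Foxj1, the transcription factor that switches on motile cilium genes, differed by -0.05 ± 0.32.

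Mfsd13a, 1271 kb below Col17a1, encodes a membrane protein of the major facilitator family. Its values were 0.26, 0.92 and 0.80 in WT and -0.68, -0.48 and -0.38 in KO-labelled ureters. Every KO-labelled array was below every WT array, with a difference of -1.17 ± 0.20 (limma, adjusted p = 0.378). The noncoding RNA 2310034G01Rik, 1298 kb below Col17a1, lies on the opposite strand. It had values of -2.99, -2.95 and -2.93 in WT and -3.90, -3.95 and -4.47 in KO-labelled ureters. Its WT arrays were tight and the female KO-labelled array was the lowest, for a difference of -1.15 ± 0.17 (limma, adjusted p = 0.378). On the other side of Mfsd13a, Actr1a, a dynactin subunit whose probe lies 1270 kb below Col17a1, differed by -0.05 ± 0.11.

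**Figure D3:**
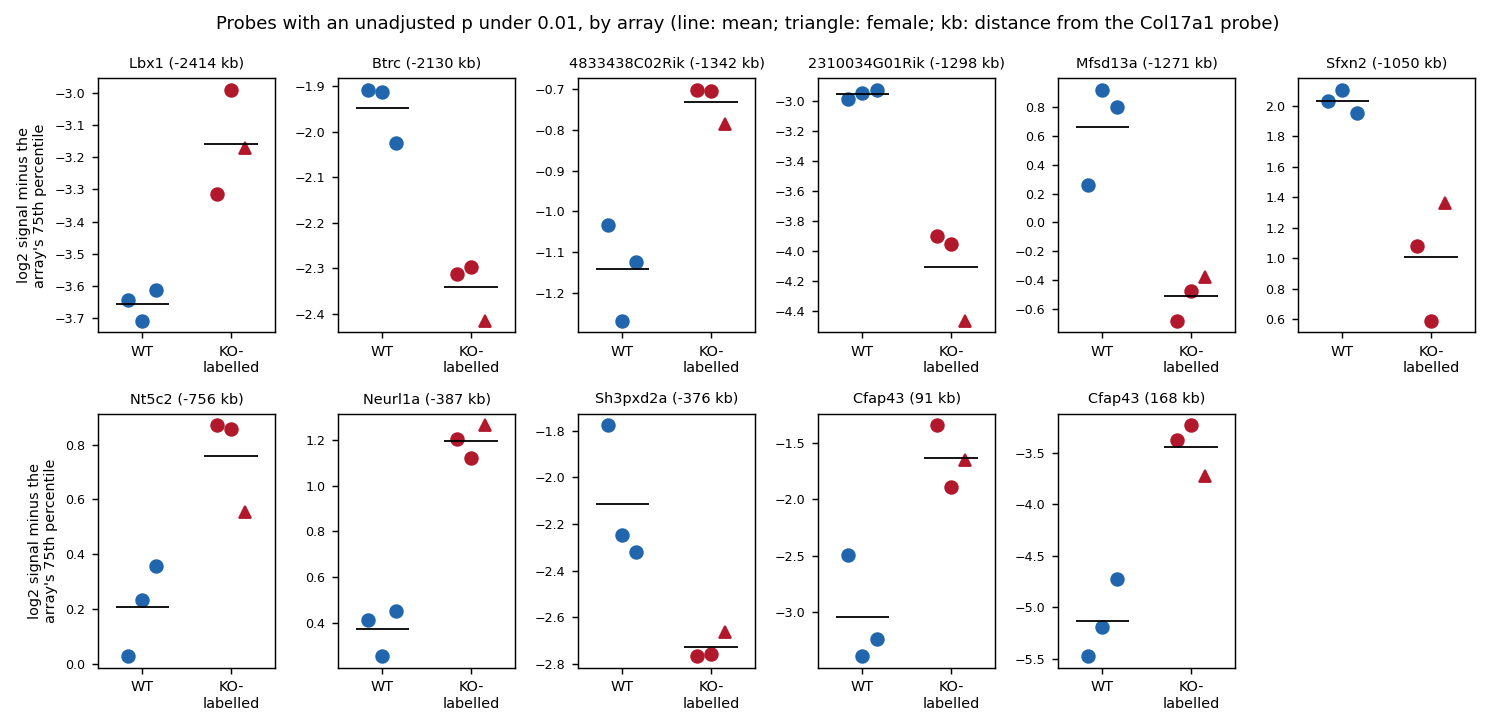
Each panel shows 1 probe with an unadjusted p under 0.01, with the log2 signal minus the array's 75th percentile for 3 WT and 3 KO-labelled ureters, the group mean as a line and the female as a triangle. In all 11 panels the groups do not overlap, so the female array lies on the side of the other KO-labelled arrays. The choice of probes by p on these same arrays makes this likely in advance.

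Lbx1, Nt5c2, 4833438C02Rik and Sh3pxd2a had smaller differences. Lbx1, a homeobox gene of muscle precursors and the spinal cord, had values of -3.64, -3.71 and -3.61 in WT and -3.31, -2.99 and -3.17 in KO-labelled ureters, a difference of 0.50 ± 0.12. With normexp background correction its difference was 0.08. Nt5c2, a nucleotidase of the cytosol, differed by 0.55 ± 0.15 at 1 probe and by 0.40 ± 0.13 at the other. At the first probe its values were 0.03, 0.23 and 0.36 in WT and 0.87, 0.86 and 0.55 in KO-labelled ureters, so the female lay nearest the WT arrays. The noncoding RNA 4833438C02Rik had values of -1.03, -1.27 and -1.12 against -0.70, -0.70 and -0.79, a difference of 0.41 ± 0.11. Sh3pxd2a, the podosome scaffold Tks5, differed by -0.61 ± 0.17 at 1 probe and by -0.22 ± 0.15 at the other. Its values at the first were -1.78, -2.25 and -2.32 in WT and -2.77, -2.76 and -2.66 in KO-labelled ureters. The brighter Sh3pxd2a probe lies 386 kb below Col17a1, beside the Neurl1a probe and on the opposite strand, and Neurl1a differed in the other direction.

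All 11 of these probes had groups that did not overlap, and none passed the adjusted threshold. Choosing probes by an unadjusted p under 0.01 on the same arrays makes such groups likely, so the lack of overlap adds no separate evidence. Over the other settings tried, Neurl1a differed by 0.69 to 0.86, Mfsd13a by -1.37 to -0.87 and the Sfxn2 probe by -1.19 to -0.81. All 3 kept an unadjusted p under 0.01 in all 16 settings, as did 2310034G01Rik, whose difference was -0.24 with normexp background correction. The settings reuse the arrays on which the probes were chosen, so they are not independent checks. With 1 female, the sex covariate gave the same values as leaving out KO replicate 3. The Cfap43 probes kept a p under 0.01 in 15 of 16 and 13 of 14 settings. Nt5c2 did so in 9 of 16, 4833438C02Rik in 8 of 16, Lbx1 in 6 of 16, Sh3pxd2a in 5 of 15 and Btrc in 3 of 15. With normexp correction the Cfap43 probes differed by 0.51 and 0.20, and the Btrc and Sh3pxd2a probes by -0.16 and -0.22.

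Probes of 1 gene did not always share a direction. Of 33 members with more than 1 tested probe, 13 had probes of both signs, and 6 of these (Sfxn2, Btrc, Dnmbp, Armh3, Pdcd11 and Stn1) had at least 1 probe with an unadjusted p under 0.05. The share over all genes with more than 1 tested probe was not counted, so 13 of 33 cannot be read as a trait of this stretch. Some were mixed only through a probe near 0, such as Sufu at -0.006 and Got1 at -0.04.

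Sfxn2 encodes sideroflexin 2, a mitochondrial membrane protein. At the probe with the AATAAA hexamer its values were 2.03, 2.10 and 1.95 in WT and 1.08, 0.59 and 1.36 in KO-labelled ureters. All KO-labelled arrays were below all WT arrays there, and the difference was -1.02 ± 0.20 (limma, adjusted p = 0.427). At the other probe, whose sequence is shown above, the values were -2.29, -2.40 and -2.58 in WT and -1.82, -2.19 and -2.26 in KO-labelled ureters. Here the KO-labelled arrays were above the WT arrays, by 0.34 ± 0.16. Both probes are assigned to the same RefSeq transcript in the files.

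Btrc encodes the F-box protein that brings phosphorylated beta-catenin and IkB to the ubiquitin system. Its splice-spanning probe had values of -1.91, -1.91 and -2.02 in WT and -2.31, -2.30 and -2.42 in KO-labelled ureters, a difference of -0.39 ± 0.10. The probe at the higher coordinate had values of -1.42, -1.47 and -1.40 in WT and -0.73, -0.93 and -1.28 in KO-labelled ureters, a difference of 0.45 ± 0.16. The groups did not overlap at either probe, in opposite directions.

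Pdcd11, a factor of ribosomal RNA processing, had a probe at -0.70 ± 0.20 and another at the lower coordinate at 0.14 ± 0.15. Stn1, a subunit of the telomere-protecting CST complex, differed by 0.27 ± 0.10 and 0.10 ± 0.11 at overlapping probes and by -0.50 ± 0.30 at a dim probe, which was well above background on 2 KO-labelled arrays. Dnmbp, an exchange factor for Cdc42, differed by 0.33 ± 0.15 and 0.52 ± 0.19 at neighbouring probes, and by -0.005 ± 0.13 at a probe assigned to another transcript. Armh3 had 1 probe at 0.35 ± 0.11 and 3 between -0.05 and 0.07. Each of these 4 genes also had a probe whose groups overlapped.

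**Figure D4:**
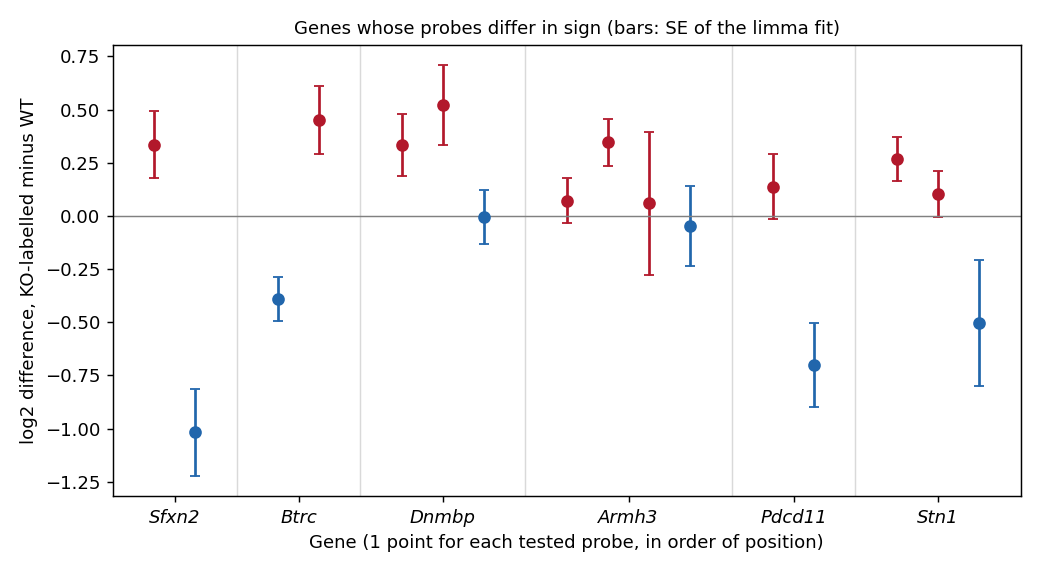
Points give the log2 difference, KO-labelled minus WT, with its standard error for each tested probe of 6 genes whose probes differ in sign, in order of position. Sfxn2 shows the widest split, from 0.34 to -1.02.

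The tested genes nearest Col17a1 on each side included some with small differences, and none passed the adjusted threshold. Neurl1a, Sh3pxd2a, Stn1 and Cfap43, which are among them, are given above. Slk, a Ste20-like kinase whose probe lies 4 kb away, differed by 0.32 ± 0.22, with WT values of -0.99, -0.25 and -0.27 and KO-labelled values of -0.31, -0.11 and -0.14. Sfr1, a factor of homologous recombination 89 kb above Col17a1, had values of 4.39, 4.55 and 4.55 in WT and 4.27, 4.24 and 4.29 in KO-labelled ureters. Its groups did not overlap, and the difference was -0.23 ± 0.10. Gsto1, an omega-class glutathione transferase, differed by -0.18 ± 0.18 at its brighter probe, and its neighbour Gsto2 by 0.08 ± 0.24. Itprip, which binds the inositol trisphosphate receptor, differed by -0.28 ± 0.34. The transcripts AK082436, Gm19557 and ENSMUST00000236554.1 have no described role in the array annotation. They lie 381 kb below, 130 kb below and 2063 kb above Col17a1. Their differences were -0.54 ± 0.37, 0.13 ± 0.11 and 0.00 ± 0.11.

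Members were grouped by function, each gene by its brightest probe, and 0 of any group passed the adjusted threshold. Of 14 listed transcription and chromatin genes 12 were tested, 7 higher and 5 lower, with a median of 0.10. Lbx1 had an unadjusted p under 0.01. Pcgf6, a Polycomb RING finger protein, had values of -1.70, -1.36 and -1.43 in WT and -0.83, -0.76 and -1.21 in KO-labelled ureters, a difference of 0.56 ± 0.17. Pax2, a transcription factor of kidney and ureter development, differed by 0.43 ± 0.16, with groups that overlapped.

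All 10 genes of the NF-kB and ubiquitin group were tested, 4 higher and 6 lower, with a median of -0.03. Nfkb2, which encodes p100 and p52 of the noncanonical NF-kB pathway, differed by -0.43 ± 0.21 and -0.43 ± 0.24 at its probes, and its groups overlapped. Its brighter probe had values of 2.43, 2.94 and 2.81 in WT and 2.12, 2.10 and 2.67 in KO-labelled ureters, with the female inside the WT range. Chuk, the kinase IKK-alpha, differed by 0.11 ± 0.11. Cuedc2, a CUE-domain protein, had values of 4.17, 4.36 and 4.24 against 3.92, 3.89 and 4.05, a difference of -0.30 ± 0.11 without overlap. Elsewhere in the genome 16 of 16 listed NF-kB genes were tested, 4 higher and 12 lower, with a median of -0.11 and 0 past the threshold, and Relb differed by -0.01 ± 0.18.

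All 9 mitochondrial genes were tested, 3 higher and 6 lower, with a median of -0.01. Besides Sfxn2, Atp5md, a small subunit of ATP synthase, had the same direction at both probes (-0.20 ± 0.10 and -0.24 ± 0.10) without overlap. Ndufb8, a subunit of complex I, differed by 0.32 ± 0.17 at its brighter probe and -0.53 ± 0.29 at the other. Twnk, the helicase of mitochondrial DNA, differed by 0.23 ± 0.11. Slc25a28, the iron carrier mitoferrin 2, differed by -0.01 ± 0.20, and its sign turned with normexp, quantile normalisation and median centring. Among 11 genes of sideroflexins and mitochondrial iron elsewhere in the genome the median difference was -0.04, from 4 higher and 7 lower values, and 0 passed the threshold. Sfxn1 differed by 0.05 ± 0.12, Sfxn4 by -0.33 ± 0.22 and Sfxn5 by -0.50 ± 0.17.

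Of 8 cilium-related members 5 were tested, 3 higher and 2 lower, with a median of 0.02. Apart from Cfap43, Arl3, a GTPase that releases cargo into cilia, differed by -0.20 ± 0.11 and -0.24 ± 0.13 with groups that did not overlap. The DNA, RNA and ribosome group had 10 tested genes, 5 higher and 5 lower, with a median of 0.02. Npm3, a nucleoplasmin-family chaperone, differed by 0.33 ± 0.11 and Poll, DNA polymerase lambda, by -0.31 ± 0.13, both without overlap.

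Of 14 membrane traffic genes 13 were tested, 7 higher and 6 lower, with a median of 0.07. At an unadjusted p under 0.05 there were 0 of 13, against 9.26% of all probes tested. So few genes cannot be told from that background. Sorcs1, a sorting receptor, differed by 0.54 ± 0.33, and Psd, an exchange factor for Arf6, by 0.32 ± 0.43 and 0.33 ± 0.46 at its probes. Hps1, which serves lysosome-related organelles, differed by -0.26 ± 0.15 at its brightest probe and by 0.18 ± 0.23 and 0.006 ± 0.11 at the others. Wbp1l differed by 0.10 ± 0.12 at its brighter probe and by -0.22 ± 0.14 at the other. Of 11 listed channel and transporter genes, Calhm3 had no probe among the members. From this list 6 were tested, 1 higher and 5 lower, with a median of -0.25. Cnnm1 and Cnnm2, of a family linked to magnesium transport, differed by 0.73 ± 0.68 and -0.41 ± 0.21. The Cnnm1 probe was well above background on 2 WT arrays and 3 KO-labelled arrays.

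Of 13 metabolic genes 10 were tested, 5 higher and 5 lower, with a median of -0.005. Entpd7, an intracellular nucleotidase, differed by -0.17 ± 0.22 at its brighter probe and by -0.61 ± 0.28 at the other. Of 12 listed cytoskeletal and signalling genes, Loxl4 lay outside the limits, and Avpi1 and Marveld1 had no probe among the members. The remaining 9 were tested, 5 higher and 4 lower, with a median of 0.05. Sema4g, a semaphorin, differed by 0.77 ± 0.43 and Kazald1, an IGF-binding protein relative, by -0.77 ± 0.38, and both had overlapping groups. Pyroxd2, the oxidoreductase gene, was counted in this list and had 3 probes of 1 sign, between -0.58 and -0.28.

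Marker lists of cell types are given as the mean of each list relative to the mean of the 6 arrays, and 0 of their genes passed the adjusted threshold. All 12 urothelium markers were higher in the KO-labelled group, with list values between -0.83 and -0.13 in WT and between -0.01 and 0.77 in KO-labelled ureters. The 7 smooth muscle markers were also higher, between -0.79 and 0.12 in WT and between -0.21 and 0.64 in KO-labelled ureters. Of 9 macrophage markers 8 were lower, between 0.08 and 0.41 in WT and between -0.47 and 0.03 in KO-labelled ureters. The 5 fibroblast markers lay between -0.19 and 0.23 in WT and between -0.16 and 0.12 in KO-labelled ureters. Of 12 nephron markers 6 were tested, at a list value of 1.70 in WT replicate 2, while the remaining arrays ran from -0.45 to -0.18. All the urothelium, smooth muscle, fibroblast and macrophage markers were well above background on all 6 arrays. For bulk tissue, fewer cells of a type and less RNA per cell cannot be told apart.

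The part of these marker levels in the differences near Col17a1 was not tested. With WT replicate 2 and KO replicate 3 both left out, a setting chosen after the data were seen, Neurl1a differed by 0.73, Mfsd13a by -1.11, 2310034G01Rik by -0.97 and the Sfxn2 probe by -1.15. The Cfap43 probes differed by 1.25 and 1.79 in that setting. It did not even out the marker levels. The urothelium list values of the arrays kept were -0.13 and -0.33 in WT and 0.77 and 0.53 in KO-labelled ureters. These probes were also chosen by p on the same arrays, so the setting is no test of the part of the markers.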

How the data were processed

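RNA of 6 ureters was hybridised to 1-colour Agilent arrays. Per the file headers, the authors' deposited intensity values are processed signals of Agilent Feature Extraction 12.0.3.1 with spatial and multiplicative detrending switched on. Whether the authors scaled arrays against each other is not given here. Spots flagged as outliers were left out, spots of a probe were averaged, and log2 processed signals were centred on each array's 75th percentile. Symbols were taken from RefSeq's GRCm38.p6 gene table for the 35405 probes with a matching accession, and from the array files for the rest. No coordinate came from that table. No spot was saturated. The test was limma 3.58.1 (R 4.3.3), with lmFit and eBayes on all tested probes and p-values adjusted over them by Benjamini-Hochberg, and the procedure was tested on simulated data. An exact permutation test of 3 against 3 arrays has a smallest two-sided p of 0.1.

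The members and gene lists were chosen with earlier results of these data known. The text names Neurl1a, Cfap43 and Sfxn2, members with a probe at an unadjusted p under 0.01, the 6 tested genes nearest Col17a1 on each side, the 3 largest differences and the brightest gene of each list, and genes with probes of opposite sign of which 1 had an unadjusted p under 0.05. Actr1a, Atp5md, Chuk, Pax2, the untested genes, the genes just outside the limits and the examples from lists elsewhere were chosen after their values were seen. Alternatives covered background correction, normalisation, centring, the treatment of dim probes, use of the brightest probe, trend and robust variance, pairing, sex, the width of the stretch and each array. The number of arrays limits the precision.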

Additional observations from a re-analysis of the deposited data

How the results depend on the processing

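The count of members past the adjusted threshold was 0 in every setting tried. With an unadjusted p under 0.05 as the limit the share of member probes was 17.6%. Leaving out each array gave shares at an unadjusted p under 0.01 of 4.23% to 8.45%, shares without overlap of 33.1% to 43.7%, median differences of -0.0683 to 0.0328 and median sizes of 0.197 to 0.238. Fewer arrays make groups without overlap more frequent by construction. The shares over all probes also moved with the array left out, as given above for some arrays, so these ranges alone do not show a steady excess. With the stretch widened to 10 Mb on each side the share at an unadjusted p under 0.01 was 4.46% and the median size 0.172. Narrowed to 2 Mb, the share was 10.6%. The share over all probes tested was 2.2% at each width. The stretches are nested and share probes, and a trend with distance was not tested. With normexp background correction the median size was 0.0964, against 0.075 over all probes. With WT replicate 2 and KO replicate 3 both left out, the shares were 4.23% and 50%, against 2.9% and 41.9% over all probes. The labels do not say whether the replicate numbers paired the samples. Deviations of same-numbered arrays correlated at 0.505, -0.145 and -0.0418, which does not decide it. The value for replicate 1, 0.505, was the highest of any pair of a WT and a KO-labelled array. With the replicate number as a block, the share at an unadjusted p under 0.01 was 6.34%, against 1.99% over all probes. Of 41 named genes, each followed by its brightest probe alone, 38 kept their direction in every setting. Many were named for a low p or a large difference on these same arrays, which makes this likely in advance. The share over all genes was not counted. Slc25a28 turned to 0.00131 with normexp, 0.00668 with quantile normalisation and 0.0215 with median centring, and ran from -0.173 to 0.0827 with each array left out. The transcript ENSMUST00000236554.1 turned to -0.0226 with a sex covariate and ran from -0.054 to 0.0477, and Gsto2 from -0.112 to 0.255. The cause was not tested. Signals close to background limit dim members such as the farther Cfap43 probe.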
